A study of Mus musculus with 12 samples.

Results

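Glycogen and glycolysis enzymes were examined as 10 genes that carry muscle glucose metabolism from stored glycogen to lactate. They were chosen by symbol, namely *Pygm*, *Gys1*, *Phkg1*, *Pfkm*, *Aldoa*, *Eno3*, *Pgam2*, *Pkm*, *Ldha* and *Pfkfb3*, and all 10 were among the 22273 genes listed for gastrocnemius and the 22252 listed for liver and for gonadal white adipose tissue (WAT). The mice were male C57BL/6J animals that carried the floxed glucocorticoid receptor (GR) gene *Nr3c1*, either without Cre (GRfl/fl) or with Cre under the skeletal actin promoter *Acta1*, which restricts the deletion to muscle fibres (GR-mKO). From 8 weeks of age both genotypes drank, for 4 weeks, water containing 1% ethanol (vehicle) or the same with 100 µg/mL corticosterone (CORT), the main glucocorticoid of rodents. RNA from 3 mice was pooled into each library, and each of the 12 combinations of tissue, genotype and treatment had 1 library. No difference between groups could therefore be tested against the spread between mice, and no p-values are given.

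In skeletal muscle, glycogen synthase adds glucose to glycogen and glycogen phosphorylase releases it as a sugar phosphate, which enters glycolysis below the hexokinase step. Phosphorylase kinase activates the phosphorylase, phosphofructokinase commits the sugar to glycolysis, and the lower enzymes carry it to pyruvate and lactate. Fast-twitch fibres, which make up most of the mouse gastrocnemius, are known for high levels of these enzymes, and several of the steps are served by a muscle isoenzyme with liver or more widespread counterparts elsewhere. Glucocorticoids are known to raise glycogen stores in liver and to oppose insulin-driven glucose use in muscle.

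Each row of the files bears 1 transcript identifier, and rows were read here as single transcripts that stand for their genes. The study's methods also name a gene-level function at import, and were a row the sum of its gene, the identifier would not tell its isoform. The transcript retained for *Pkm*, *Pfkm*, *Aldoa* and *Pfkfb3* in gastrocnemius was not the one retained in liver and WAT. Changes are therefore given within a tissue only. For pyruvate kinase the difference in identifier exchanges a coding exon, so the exon that sets the transcripts apart is shown here. The gastrocnemius row names Pkm-202, which carries the exon of the M1 form, the usual pyruvate kinase of muscle and brain, at chr9:59675029-59675195 (GRCm38, plus strand). The liver and WAT row names Pkm-201, which carries the exon of the M2 form, found in many other tissues, at chr9:59675568-59675734. Each is exon 9 of its own transcript and 167 bases long, and capitals mark the 64 positions at which the sequences, from GENCODE release M21, differ.
Pkm-202, exon of the gastrocnemius row: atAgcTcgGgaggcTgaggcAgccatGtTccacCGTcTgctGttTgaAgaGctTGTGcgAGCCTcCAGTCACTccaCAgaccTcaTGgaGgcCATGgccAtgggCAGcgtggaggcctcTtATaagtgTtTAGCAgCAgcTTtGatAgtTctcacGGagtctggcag
Pkm-201, exon of the liver and WAT row: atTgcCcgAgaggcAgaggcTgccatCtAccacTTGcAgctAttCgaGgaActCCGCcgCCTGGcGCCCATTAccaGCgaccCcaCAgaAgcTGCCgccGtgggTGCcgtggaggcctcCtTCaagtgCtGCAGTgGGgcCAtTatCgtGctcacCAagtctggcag
At the other positions, 61.7% of the exon, the sequences were identical.

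Each library held between 19394572 and 20940660 expected counts, and levels are given in counts-per-million (CPM) of the library total. Intervals cover counting error only, at 95%, and the floor of 3 counts was 0.143 to 0.155 CPM. As a check of the labels, *Nr3c1* in gastrocnemius of GRfl/fl mice was at 113 CPM under vehicle and 90.4 CPM under CORT, and in GR-mKO mice at 46.4 and 35.5 CPM. Its row counts the whole transcript, of which exon 3 is floxed, and the tissue also holds cells without Cre. *Fkbp5*, a well-known GR target, was at 61.9 and 355 CPM in the former and at 30 and 20.8 CPM in the latter. Defining markers matched the labelled tissues, with sums of 116808 to 161899 CPM over 10 skeletal myofibre genes in gastrocnemius, 94371 to 167079 CPM over 10 hepatocyte genes in liver and 25250 to 32328 CPM over 8 adipocyte genes in WAT. Other markers differed between the gastrocnemius libraries. The 10 hepatocyte genes summed, under vehicle and CORT, to 7.58 and 10.5 CPM with the intact receptor and to 96.1 and 334 CPM in the knockout. The 7 slow myofibre genes summed to 751, 734, 1898 and 1096 CPM in the same order of libraries, and the 6 fibroblast genes to 1792, 566, 2662 and 819 CPM. The 8 adipocyte genes summed to 383, 943, 426 and 639 CPM, and of the 7 above 0 in every library 6 were past 1.5-fold higher with CORT where the receptor was intact and 5 in the knockout. The 8 macrophage genes summed to 258, 122, 755 and 187 CPM, the 5 endothelial genes to 312, 275, 351 and 239 CPM, and the 5 erythroid genes to 799, 774, 1332 and 2477 CPM. The part of these markers in the enzyme changes was not tested. In a bulk sample fewer cells of a type and less RNA per cell cannot be told apart.

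In gastrocnemius 9 of the 10 enzymes ranked between 15 and 232 in CPM among all listed genes in every library, and *Pfkfb3* between 592 and 1768. The 10 rows together took between 2.39% and 2.89% of all counts, against 0.0509% to 0.0595% in liver and 0.309% to 0.51% in WAT, whose rows name other transcripts for 4 of the enzymes. On the per-length scale, in TPM over the listed rows, aldolase *Aldoa* had the highest median level over the 4 gastrocnemius libraries at 7301, followed by the glycogen phosphorylase *Pygm* at 3853. The phosphoglycerate mutase *Pgam2* had a median of 3058, the enolase *Eno3* of 2327, and the lactate dehydrogenase *Ldha* of 1906. *Pkm* and the phosphofructokinase *Pfkm* were next at 1106 and 1064, and their ranges overlapped, with 1069 to 1253 for *Pkm* and 775 to 1546 for *Pfkm*. The phosphorylase kinase subunit *Phkg1* and the glycogen synthase *Gys1* had medians of 241 and 206, also with overlapping ranges. The lowest was *Pfkfb3* at 29, which encodes the enzyme that makes a sugar bisphosphate activating phosphofructokinase.

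**Figure D1:**
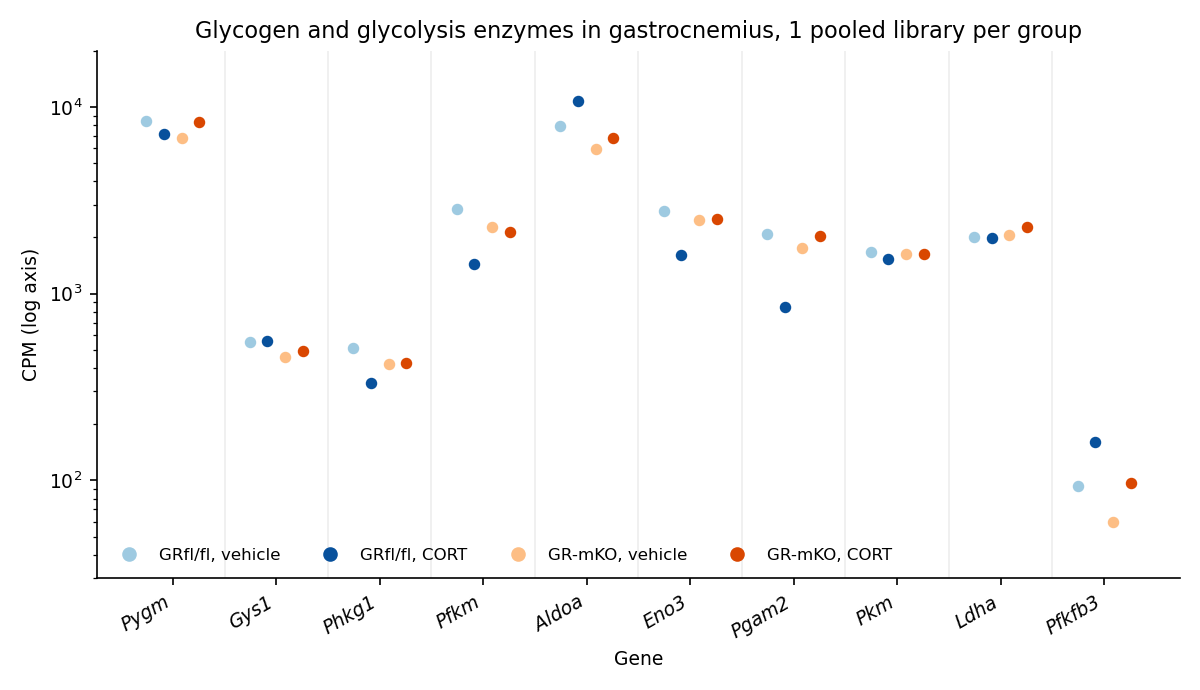
Level of each enzyme in CPM (log axis) in the 4 gastrocnemius libraries, 1 point per pooled library with a 95% counting interval that is mostly smaller than the point. The dark blue points, CORT-treated GRfl/fl mice, are the lowest of the 4 for *Phkg1*, *Pfkm*, *Eno3* and *Pgam2* and the highest for *Aldoa* and *Pfkfb3*. By small margins they are also the lowest for *Pkm* and *Ldha* and the highest for *Gys1*.

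In GRfl/fl gastrocnemius the CORT library had lower levels of several enzymes of the chain and a higher level of *Pfkfb3*. Past a fold of 1.5 with a counting interval of the ratio that excluded 1, *Pgam2*, *Pfkm*, *Eno3* and *Phkg1* were lower and *Pfkfb3* was higher, 5 of the 10. Among all 13543 genes above 0 in every gastrocnemius library 23.1% passed this rule, and among the 1032 genes with a mean of at least 100 CPM, which include all 10 enzymes, 17.6% passed it. In that abundant class 9.3% of genes passed it as lower and 8.33% as higher, against 4 and 1 of the 10 enzymes. By NOISeq, the method for data without replicates that the authors used, 1 of the 10 enzymes was called, *Pgam2*, against 3.52% of the genes tested. The median log2 change of the 10 was -0.19, beside -0.08 for all genes tested and -0.03 for the abundant class. Of the 10 skeletal myofibre markers 7 were also lower, with a median log2 change of -0.24 and sums of 161899 CPM under vehicle and 153040 CPM under CORT, and their part in the enzyme changes was not tested.

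*Pgam2*, the muscle form of the mutase that prepares phosphoglycerate for enolase, fell the most. In GRfl/fl mice it was at 2092 CPM under vehicle and 849.5 CPM under CORT, and in the knockout at 1764 and 2028 CPM. The CORT-treated GRfl/fl library alone was low, at 40.6% of its vehicle library, a log2 change of -1.30 (-1.33 to -1.27). Between the knockout libraries CORT was the higher, by 0.20 (0.18 to 0.22) on the log2 scale.

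*Pfkm*, which encodes the muscle subunit of phosphofructokinase, the main control point of glycolysis, followed the same pattern. Its levels were 2842, 1440, 2264 and 2133 CPM in the libraries GRfl/fl vehicle, GRfl/fl CORT, GR-mKO vehicle and GR-mKO CORT, in that order, as for all values below. The CORT library of GRfl/fl mice was at 50.7% of vehicle, a log2 change of -0.98, whereas that of GR-mKO mice was at 94.2%. *Eno3*, the muscle enolase that yields phosphoenolpyruvate, was at 2766, 1606, 2489 and 2508 CPM. The 3 other libraries lay close together, and the CORT-treated GRfl/fl library was at 58.1% of its control, a log2 change of -0.78 (-0.80 to -0.76), beside 0.01 in GR-mKO mice.

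*Phkg1*, the catalytic subunit of muscle phosphorylase kinase, was at 511, 332, 420 and 424 CPM. The CORT-treated GRfl/fl library was again the lowest, at 65% of vehicle, with a log2 change of -0.62 (-0.67 to -0.58) that no longer passed 1.5-fold when libraries were scaled by TMM or median-of-ratios factors. In GR-mKO mice its log2 change was 0.01. *Pygm*, the phosphorylase that *Phkg1*'s kinase activates, was at 8461, 7186, 6801 and 8301 CPM, lower with CORT in the presence of the receptor (log2 change -0.24) and higher in its absence (0.29), within 1.5-fold in both.

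**Figure D2:**
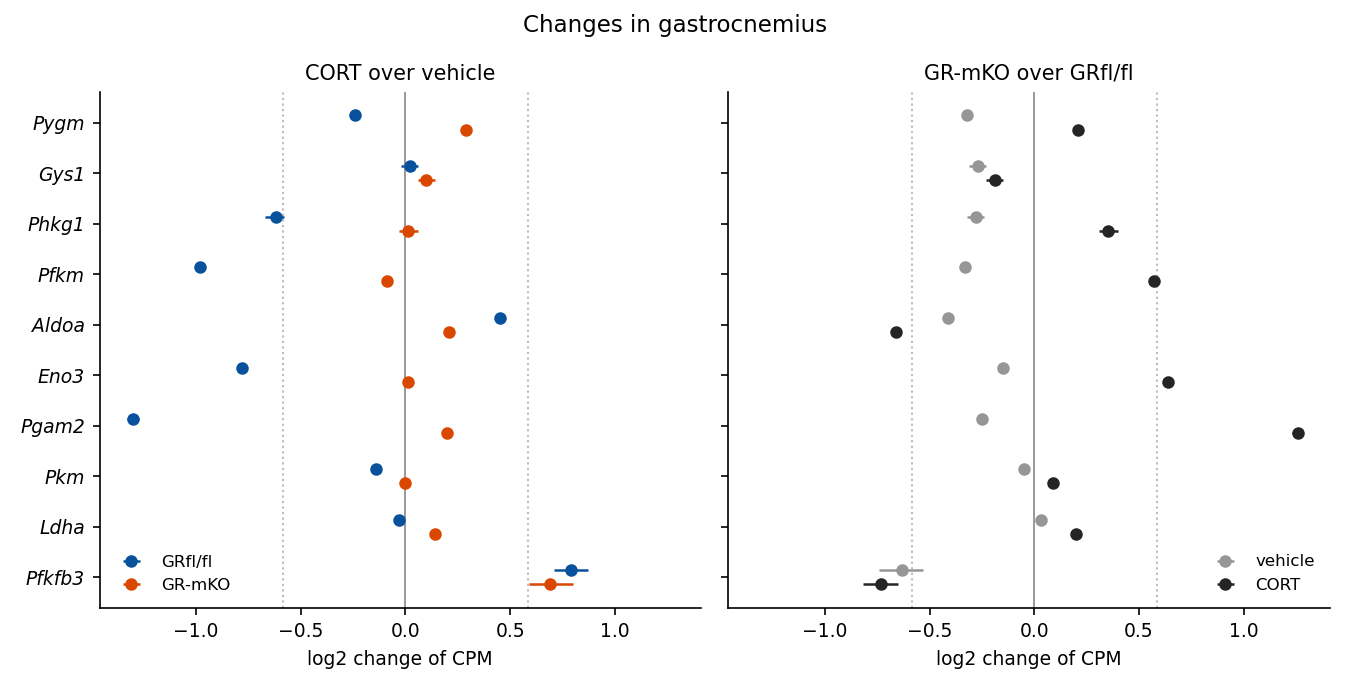
Log2 change of CPM for each enzyme in gastrocnemius, CORT over vehicle on the left (blue GRfl/fl, orange GR-mKO) and GR-mKO over GRfl/fl on the right (grey vehicle, black CORT). Horizontal bars are 95% counting intervals and dotted lines mark 1.5-fold in either direction. *Pgam2* lies at -1.30 (blue) and 0.20 (orange) on the left, and *Pfkfb3* lies beyond the upper dotted line in both.

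The remaining enzymes of the chain kept close to their vehicle level. *Gys1*, the muscle glycogen synthase, was at 553.5, 561, 458 and 492 CPM, with log2 changes for CORT of 0.02 and, in the knockout, 0.10. *Pkm*, the last ATP-yielding step, had the narrowest range, with 1680, 1527, 1624 and 1626 CPM and log2 changes of -0.14 and 0.00. *Ldha*, which reduces pyruvate to lactate, was at 2020, 1979, 2059 and 2270 CPM with log2 changes of -0.03 and 0.14. For *Ldha* with the receptor, and for *Pfkm*, *Phkg1*, *Eno3* and *Pkm* without it, the sign of so small a change depended on how libraries were scaled.

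*Aldoa* and *Pfkfb3* went the other way. *Aldoa*, the aldolase that splits the doubly phosphorylated sugar into triose phosphates, was at 7877, 10787, 5925 and 6835 CPM, higher with CORT in both genotypes, at 137% and 115% of vehicle, which did not pass 1.5-fold. *Pfkfb3* was at 93.1, 161, 59.9 and 96.6 CPM. It was the only enzyme past 1.5-fold with CORT in both genotypes, with log2 changes of 0.79 (0.71 to 0.87) where the receptor was intact and 0.69 (0.59 to 0.80) where it was deleted. The GR-mKO libraries were lower than the GRfl/fl libraries of the same treatment for both genes, and for *Pfkfb3* the CORT-treated GR-mKO library stood near the vehicle-treated GRfl/fl library.

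In GR-mKO mice 1 of the 10 enzymes, *Pfkfb3*, passed 1.5-fold with CORT, against 19.3% of all genes tested and 7.17% of the abundant class. NOISeq called none of the 10 in these mice, against 2.02% of genes. Of the 10, 9 had a log2 change above 0 (for *Phkg1*, *Eno3* and *Pkm* by at most 0.01, and below 0 without mitochondrially encoded genes in the totals), with a median of 0.12 beside -0.10 for all genes tested and 0.04 for the abundant class. All 10 skeletal myofibre markers were also higher with CORT in these mice, with a median log2 change of 0.24. The CORT change in GR-mKO mice minus that in GRfl/fl mice, on the log2 scale, was 1.5 (1.47 to 1.53) for *Pgam2*, 0.90 (0.87 to 0.92) for *Pfkm*, 0.80 (0.77 to 0.82) for *Eno3*, 0.64 (0.57 to 0.70) for *Phkg1* and 0.52 (0.51 to 0.54) for *Pygm*. The difference was between 0.08 and 0.17 for *Gys1*, *Pkm* and *Ldha*, and -0.10 (-0.24 to 0.03) for *Pfkfb3* and -0.25 (-0.26 to -0.23) for *Aldoa*. With 1 library in each group these differences were not tested.

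**Figure D3:**
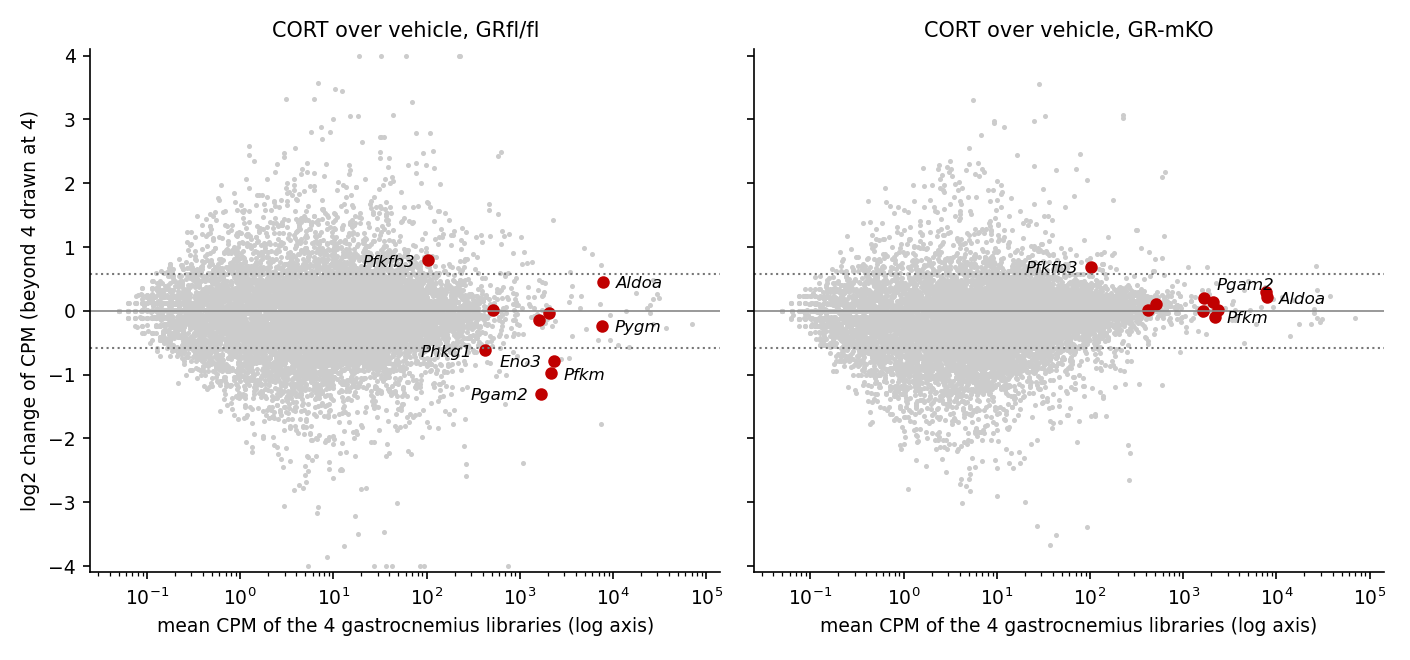
Log2 change with CORT against the mean level in CPM (log axis) for the 13543 genes tested in gastrocnemius, GRfl/fl mice on the left and GR-mKO mice on the right. Grey points are all genes, red points the 10 enzymes, and dotted lines mark 1.5-fold in either direction. In GRfl/fl mice *Pgam2* lies at percentile 1.84 of the changes of the 1032 abundant genes, *Pfkm* at 3.49 and *Eno3* at 6.2, and in GR-mKO mice all but *Pfkfb3* lie between the dotted lines.

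Under vehicle, the GR-mKO library had lower levels of 9 of the 10 enzymes (all but *Ldha*, which was lower too under TMM or median-of-ratios factors, whereas *Pkm* was higher without mitochondrially encoded genes in the totals), with a median log2 change against GRfl/fl mice of -0.28, beside 0.07 for all genes tested and -0.03 for the abundant class. The sum over the 10 skeletal myofibre markers was also lower in this library, at 116808 CPM against 161899, and their part in the enzyme levels was not tested. The largest differences were for *Pfkfb3*, at 64.4% of the GRfl/fl level with a log2 change of -0.63 (-0.74 to -0.53), and *Aldoa*, at 75.2% with -0.41. *Pfkm*, *Pygm*, *Phkg1*, *Gys1* and *Pgam2* lay between 79.6% and 84.3% of the GRfl/fl level. *Pfkfb3* was the 1 enzyme past 1.5-fold, against 24.8% of all genes and 20.4% of the abundant class, and none was called by NOISeq, against 3.22% of genes. The call of *Pfkfb3* was lost when mitochondrially encoded genes were left out of the library totals.

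Under CORT, 4 of the 10 enzymes differed past 1.5-fold between genotypes, against 28.3% of all genes and 27.1% of the abundant class. *Pgam2* was at 239% of the GRfl/fl level, a log2 change of 1.26 (1.23 to 1.28), and was the 1 enzyme called by NOISeq, against 3.87% of genes. *Eno3* was at 156% and *Pfkm*, just inside 1.5-fold, at 148%. *Aldoa* and *Pfkfb3* were lower in GR-mKO mice, at 63.4% and 60%. The median log2 change over the 10 was 0.20, beside 0.02 for all genes tested. This comparison and that of CORT with vehicle in GRfl/fl mice share the library of CORT-treated GRfl/fl mice, so the low *Pgam2*, *Eno3* and *Pfkm* values in both are the same measurement.

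The patterns of the enzymes over the 4 libraries were set side by side by the distance between their log2 levels, each centred on its own mean. The closest were *Pkm* and *Ldha* at 0.15, which hardly moved, followed by *Pfkm* and *Eno3* at 0.20, *Pygm* and *Pkm* at 0.23, and both *Phkg1* with *Eno3* and *Pygm* with *Ldha* at 0.24. The farthest apart were *Pgam2* and *Pfkfb3* at 1.92. *Pfkfb3* had the widest range of the 10, a log2 range of 1.42. Among 7136 genes with a mean of at least 10 CPM, the 5 nearest to it were *Sertad2* at 0.19, *Agt* at 0.22, *Tirap* at 0.23, and *Shisa2* and *Actn3* at 0.24. *Actn3*, the actinin of fast fibres, was at 7144, 11768, 4792 and 6186 CPM. These distances describe 4 libraries and carry no test.

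The promoters of all 10 enzymes were searched for short words, on both strands, in the 250 bases before the RefSeq start nearest to the retained transcript (GRCm38). The counts take the windows of the gastrocnemius transcripts. The GR half-site AGAACA was present in 2 of the 10, *Pgam2* and *Phkg1*, near its share of 16.1% of all 32851 promoters of this length. It was absent from the windows of *Pfkm* and *Eno3*, which were also lower with CORT in GRfl/fl mice. The *Pgam2* and *Phkg1* promoters are shown, with AGAACA (or TGTTCT on the other strand) and the E-box CAGCTG in capitals. The *Pgam2* window, chr11:5803797-5804046 on the minus strand, leads to a RefSeq start 63 bases upstream of that of the retained transcript, and its half-site begins 200 and its E-box 125 bases before the RefSeq start. In the *Phkg1* window, chr5:129879089-129879338 on the minus strand, the half-site begins 222 bases before the start.
Pgam2 promoter: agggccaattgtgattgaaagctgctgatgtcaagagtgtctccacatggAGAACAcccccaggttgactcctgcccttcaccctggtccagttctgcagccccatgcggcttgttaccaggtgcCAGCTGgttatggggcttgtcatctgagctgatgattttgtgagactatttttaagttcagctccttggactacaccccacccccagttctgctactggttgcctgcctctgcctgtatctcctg
Phkg1 promoter: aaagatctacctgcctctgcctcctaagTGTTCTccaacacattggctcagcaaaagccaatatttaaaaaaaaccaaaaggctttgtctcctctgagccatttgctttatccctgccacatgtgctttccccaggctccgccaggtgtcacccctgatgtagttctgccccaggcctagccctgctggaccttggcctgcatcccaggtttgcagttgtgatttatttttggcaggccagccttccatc
A pair of inverted half-sites 3 bases apart was present in none of the 10 and in 0.00913% of all promoters, and each pair would also count as half-sites. The E-box CAGCTG was present in 4 of the 10, *Pygm*, *Gys1*, *Pgam2* and *Pkm*, and in 13% of all promoters. The word ACGTG was present in 4 of the 10, *Pygm*, *Pfkm*, *Ldha* and *Pfkfb3*, and in 16.6% of all promoters, and TATAAA in none of the 10 and in 12.4%. The windows of *Eno3* and of *Aldoa* in gastrocnemius held none of these words. The window of the *Aldoa* transcript retained in liver and WAT held AGAACA, beginning 97 bases before the start, and ACGTG, beginning 126 bases before it.

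The rest of the pathway was followed in lists of other glycogen enzymes and regulators (20 of 21 genes tested), other glycolytic enzymes, isoenzymes and transporters (19 of 24) and genes of pyruvate entry into mitochondria (13 of 13). With CORT in GRfl/fl gastrocnemius, 6 of the 20 glycogen genes passed 1.5-fold, 4 higher and 2 lower, 1 of the 19 glycolysis genes, *Ldhd*, which was lower, and 2 of the 13 pyruvate genes, 1 in each direction, where 23.1% of all genes tested passed. In GR-mKO mice the counts for CORT were 5, 1 and 3, against 19.3% of all genes. Between genotypes they were 6, 2 and 3 under vehicle, against 24.8%, and 5, 4 and 3 under CORT, against 28.3%. Their median log2 changes in GRfl/fl mice were 0.05, -0.25 and -0.24.

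*Ppp1r3c*, the regulatory subunit that brings protein phosphatase 1 to glycogen and so activates glycogen synthase, stood out among the glycogen genes. It was at 517.4, 1472, 131 and 233 CPM, rising with CORT by 1.51 (1.48 to 1.54) on the log2 scale where the receptor was intact. Both GR-mKO libraries were below both GRfl/fl libraries, with log2 changes between genotypes of -1.98 under vehicle and -2.66 under CORT, and NOISeq called all 3 of these comparisons. Its log2 change with CORT in GR-mKO mice was 0.83, past 1.5-fold but not called by NOISeq. The glycogen branching enzyme *Gbe1* was at 49.4, 94.3, 47.1 and 46.7 CPM, high in the CORT-treated GRfl/fl library alone, with a log2 change of 0.93 (0.82 to 1.05). Phosphoglucomutase *Pgm1*, which joins glycogen breakdown to glycolysis, was in GRfl/fl mice at 1056 CPM under vehicle and 675 CPM under CORT, lower by a log2 change of -0.65.

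Among the glycolysis genes, *Slc16a3*, the lactate exporter MCT4 of fast fibres, was at 376, 312, 138 and 121 CPM. It was lower in GR-mKO mice under both treatments, with log2 changes of -1.44 and -1.36, both called, and within 1.5-fold for CORT in either genotype. The other glycolysis genes past 1.5-fold between genotypes were higher in GR-mKO mice. *Eno1* was higher under both treatments, with log2 changes of 0.81 and 0.80. *Ldhb* and *Ldhd* were higher under CORT, with 0.84 and 0.80. The median log2 change of the list between genotypes was 0.178 under vehicle and 0.295 under CORT.

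Among the pyruvate genes, the pyruvate dehydrogenase kinase *Pdk4*, which shuts pyruvate out of oxidation, was at 406, 967, 214 and 970 CPM. It rose with CORT in both genotypes, with log2 changes of 1.25 and, in the knockout, 2.18. *Pdp1*, the phosphatase that opposes it, was at 23, 8.72, 45.9 and 28.3 CPM and fell with CORT in both genotypes. Its log2 change was -1.35 (-1.66 to -1.14) in GRfl/fl mice and -0.69 (-0.85 to -0.55) in GR-mKO mice. The mitochondrial pyruvate carrier genes *Mpc1* and *Mpc2* were, under CORT, higher in the knockout than in its control, at 416 against 259 CPM and 192 against 113 CPM.

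**Figure D4:**
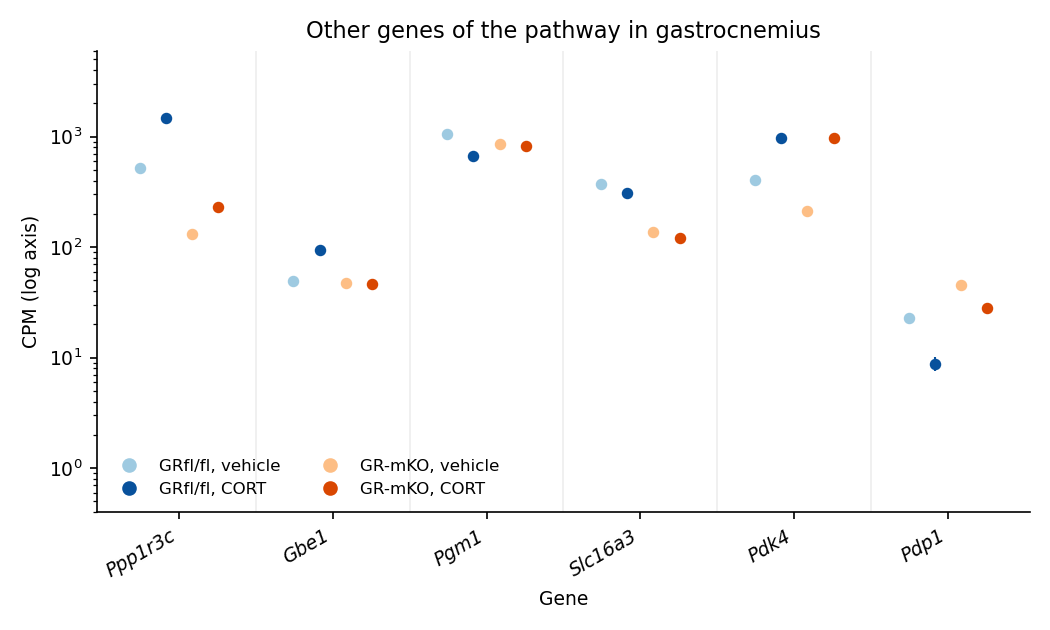
Level in CPM (log axis) of 6 other genes of glycogen, glycolysis and pyruvate metabolism in the 4 gastrocnemius libraries, 1 point per pooled library with its 95% counting interval. *Ppp1r3c* is highest in CORT-treated GRfl/fl mice and lowest in GR-mKO mice, and *Pdk4* is high in both CORT libraries.

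Isoenzymes were compared within each tissue on the per-length scale, as the share of the enzyme's listed forms, for 9 of the 10 enzymes. In all 4 gastrocnemius libraries the enzyme of the set made up more than 50% for 8 of the 9 families, with *Pygm*, *Gys1*, *Pfkm*, *Pgam2* and *Pkm* each at 98.7% or more. *Ldha* took 86.4% to 92.3% of *Ldha* plus *Ldhb*, and *Pfkfb3* took 28.4% to 49.9% of its 4 listed forms. In liver only *Ldha* was above 50% in all 4 libraries, since *Pygl*, *Gys2*, *Eno1*, *Pgam1* and *Pklr* stood for most of their families. In WAT 4 were above 50%, *Gys1*, *Pkm*, *Ldha* and *Pfkfb3*. Each share rests on 1 row per gene and on the length of the transcript that the row names.

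In WAT the enzymes split into abundant and scarce. *Aldoa* was at 1630, 2837, 1408 and 2669 CPM in the same order of libraries, and both CORT libraries exceeded both vehicle libraries, with log2 changes of 0.80 and 0.92. *Pkm*, whose row here bears the identifier of Pkm-201, was at 385, 561, 314 and 503.5 CPM with log2 changes of 0.54 and 0.68, and *Ldha* at 917, 1134, 758 and 1055 CPM with 0.31 and 0.48. For these 3 genes the CORT libraries were higher in both genotypes. *Gys1* was at 205, 175, 196 and 159 CPM. *Pfkfb3* was at 585, 368, 367.5 and 375 CPM, so that the vehicle-treated GRfl/fl library stood apart from 3 that lay together, and CORT and vehicle differed by a log2 change of -0.67 in the former genotype and 0.03 in the knockout.

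Unlike the muscle glycogen synthase *Gys1*, the enzymes *Phkg1*, *Pfkm*, *Pygm*, *Eno3* and *Pgam2* were scarce in WAT. *Phkg1* was at 23.8, 6.09, 18.4 and 7.23 CPM and fell with CORT in both genotypes, with log2 changes of -1.89 (-2.27 to -1.68) and -1.28 (-1.63 to -1.06), both called by NOISeq. *Pfkm* was at 24.5, 12.3, 19.6 and 18.2 CPM, with CORT at 50% of vehicle in the former genotype and 92.8% in the knockout. *Pygm* was at 2.71, 2.38, 6.68 and 3.07 CPM, highest in the vehicle-treated GR-mKO library. The 10 skeletal myofibre markers summed to 93.9, 145, 240 and 135 CPM, of which *Acta1* alone made up 37.4, 113, 199 and 103 CPM. In the vehicle-treated GR-mKO library 3 of them were listed at 0, and 5 of the 6 above 0 in every WAT library were lower than in vehicle-treated GRfl/fl mice. Their part in the *Pygm* level was not tested. *Eno3* was at 6.08, 4.29 and 2.45 CPM in 3 libraries and listed at 0 in CORT-treated GRfl/fl mice, at least 40.3-fold lower than its vehicle library when set against the floor. *Pgam2* stayed between 0.405 and 0.603 CPM.

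Of the 9 enzymes above 0 in every WAT library, 4 passed 1.5-fold with CORT in GRfl/fl mice, against 32.7% of 14218 genes, and 4 in GR-mKO mice, against 25.4%. NOISeq called 1 in each genotype, *Phkg1*, against 7.12% and 4.14% of genes. Between genotypes 2 passed 1.5-fold under vehicle, *Pygm* as higher and *Pfkfb3* as lower in GR-mKO mice, against 9.84% of genes, and none under CORT, against 10.7%. NOISeq called none of the 9 between genotypes, against 0.724% of genes under vehicle and 0.654% under CORT. The adipocyte markers summed to 29995, 25520, 32328 and 25250 CPM, and the 5 endothelial markers to 636, 231, 579 and 314 CPM, lower in both CORT libraries. The 8 macrophage markers summed to 1715, 1956, 2121 and 2083 CPM. Of the 7 above 0 in every library, 5 were past 1.5-fold higher and 2 lower with CORT in each genotype. The 6 fibroblast markers summed to 2683, 3136, 2583 and 3111 CPM. The 5 erythroid markers summed to 4375, 2155, 4441 and 5674 CPM, and the part of these markers in the enzyme changes was not tested.

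**Figure D5:**
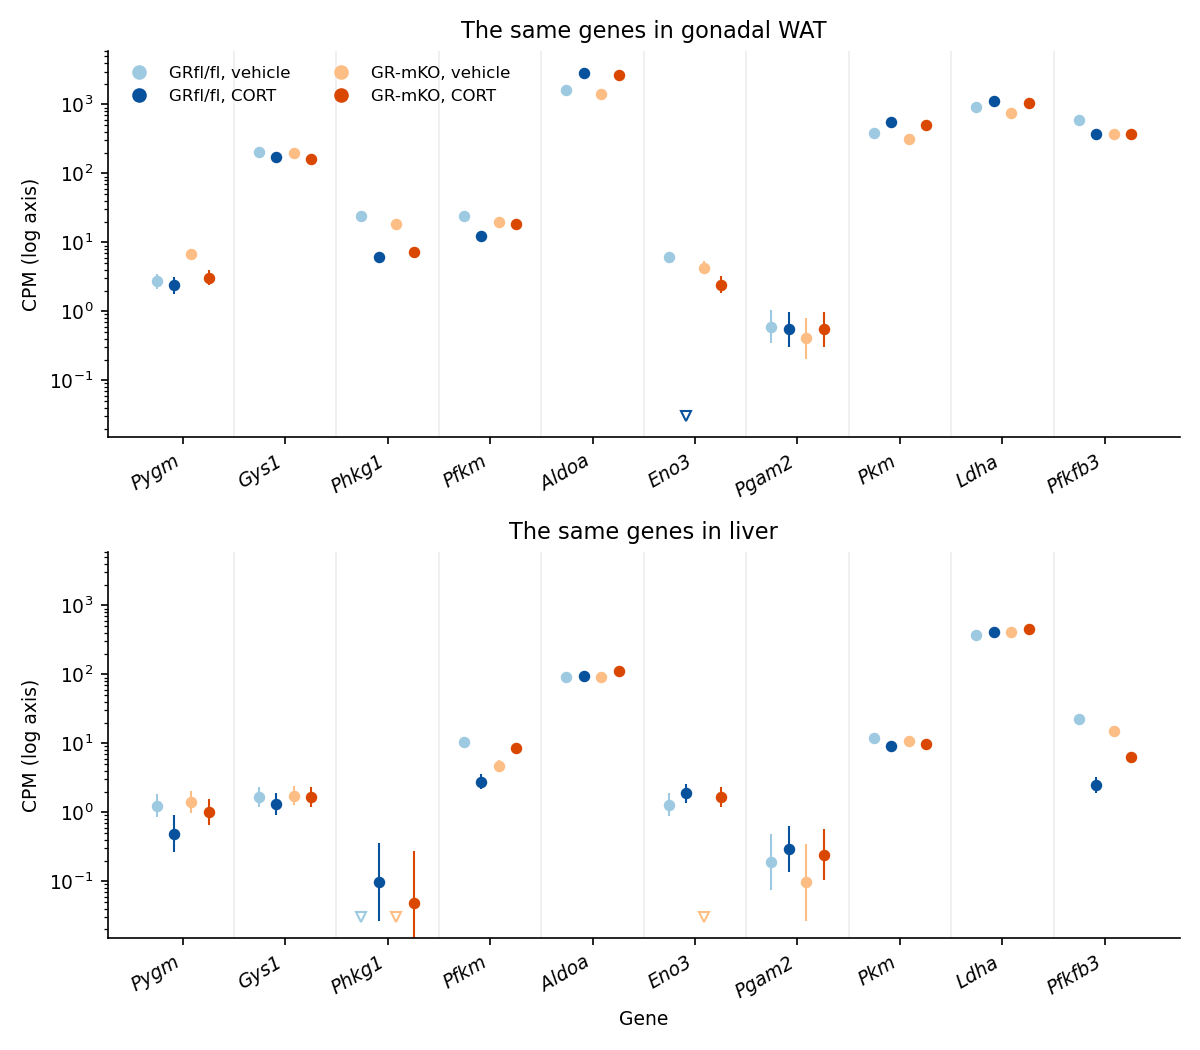
Level of each enzyme in CPM (log axis) in gonadal WAT (top) and liver (bottom), 1 point per pooled library with its 95% counting interval. Open triangles at the bottom mark libraries in which the gene was listed at 0. *Aldoa* is higher in both CORT libraries of WAT, and in liver *Pfkfb3* is lower in both CORT libraries while *Pfkm* moves in opposite directions in the 2 genotypes.

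In liver 5 of the 10 enzymes were scarce. *Pygm*, *Gys1*, *Eno3*, *Pgam2* and *Phkg1* did not exceed 1.88 CPM in any library, and *Eno3* and *Phkg1* were listed at 0 in 1 and 2 libraries. *Ldha* was the most abundant, at 370, 415, 408 and 454 CPM, followed by *Aldoa* at 90.2, 94.5, 91.8 and 111 CPM, and neither passed 1.5-fold in any comparison. *Pkm* was at 12, 9.18, 10.6 and 9.89 CPM. *Pfkfb3* was at 22.2, 2.51, 15.3 and 6.27 CPM, low in both CORT libraries, with log2 changes of -2.91 (-3.60 to -2.73) in GRfl/fl mice, called by NOISeq, and -1.22 (-1.59 to -0.99) in GR-mKO mice, not called. *Pfkm* was at 10.5, 2.78, 4.67 and 8.64 CPM. It fell with CORT in GRfl/fl mice by a log2 change of -1.74 (-2.36 to -1.48), called by NOISeq, and was higher with CORT in GR-mKO mice by 0.82 (0.51 to 1.25), not called. The 10 skeletal myofibre markers in these livers summed to 1.24, 0.748, 0.0484 and 8.03 CPM. The 8 macrophage markers summed to 218, 40.3, 174 and 70.8 CPM, and all 8 were lower with CORT in both genotypes, as *Pfkfb3* was. The 5 endothelial markers summed to 73.1, 43.9, 72.9 and 59.6 CPM, and the 5 erythroid markers to 1020, 446, 663 and 1120 CPM, lower with CORT in GRfl/fl mice and higher in GR-mKO mice, as *Pfkm* was. The part of these markers in the enzyme changes was not tested.

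Of the 8 enzymes above 0 in every liver library, 3 passed 1.5-fold with CORT in GRfl/fl mice, against 28% of 12485 genes, and 2 in GR-mKO mice, against 18.4%. NOISeq called 2 and none, against 5.08% and 2.31% of genes. Between genotypes 1 passed 1.5-fold under vehicle, *Pfkm*, against 10.4% of genes, and 2 under CORT, *Pfkm* and *Pfkfb3*, against 17.1%. NOISeq called none of the 8 between genotypes, against 0.577% of genes under vehicle and 1.47% under CORT.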

How the data were processed

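Per the labels and the study's methods, RNA pooled from 3 mice per group was sequenced as paired reads of 100 bases. The authors quantified the reads with Salmon 1.2.1 against GENCODE protein-coding transcripts of GRCm38, imported them with tximport in R 3.5.0 and, where a symbol recurred, kept the entry with the largest total. The deposited values are expected counts that the authors had tximport derive from length-scaled TPM, so they follow abundance and are not Salmon's own estimated read counts, and counting intervals on them are approximate. No further scaling between libraries is stated. Values were divided by the library total to give CPM, and 0.5 CPM was added to both sides of a log2 change. Whether other transcripts of a gene changed was not analysed here.

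NOISeq for data without replicates was rewritten in Python 3.11.15 (numpy 2.4.6, pandas 2.3.3, scipy 1.17.1, numba 0.67.0), with 5 simulated samples at 20% depth, a variability of 0.02 and calls at a probability of at least 0.9, over genes that no library of the tissue listed at 0, and was tested on simulated data. Ratios carry exact (Clopper-Pearson) and CPM values Wilson intervals, on counts rounded to whole numbers. Scaling factors came from edgeR 4.0.16 and DESeq2 1.42.0 in R 4.3.3, and figures from matplotlib 3.10.9. The text names the 10 enzymes, isoenzymes of the set, the 5 genes nearest to the enzyme of widest range, *Acta1*, *Nr3c1* and *Fkbp5*. For each other list, the 3 genes with the largest absolute log2 change in each gastrocnemius comparison were taken, at a mean of at least 10 CPM. A selection of these is named. The others, among them *Stbd1*, *Phka1*, *Hk2* and *Pdk1*, enter the counts only. Some genes of the pathway are not reported here. The enzymes, lists and tests were chosen with earlier results of these data known.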

Additional observations from a re-analysis of the deposited data

Results flagged for a closer look

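The change with CORT was flagged where it had opposite signs in the 2 genotypes under every scaling tried. The counting interval of the ratio also had to exclude 1 in both genotypes. This held for 3 measurements. In gastrocnemius *Pgam2* was lower with CORT in GRfl/fl mice and higher in GR-mKO mice, a difference of 1.5 on the log2 scale, and *Pygm* showed the same pattern with a smaller difference of 0.52. In liver *Pfkm*, at 2.78 to 10.5 CPM, was lower with CORT in GRfl/fl mice and higher in GR-mKO mice, a difference of 2.56. With 1 pooled library in each group the differences were not tested.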

How the results depend on the processing

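Each group held 1 library, so neither leaving out a replicate nor a test was possible. No paired analysis was possible because each group held 1 library. No direction of a called change reversed under any alternative tried. The scalings shifted all genes by at most 0.14 on the log2 scale, too little to reverse a change past 1.5-fold. With TMM factors, median-of-ratios factors and totals without mitochondrially encoded genes, the median log2 change of the 10 enzymes in gastrocnemius was -0.10, -0.08 and -0.16 for CORT in GRfl/fl mice, 0.27, 0.26 and 0.07 for CORT in GR-mKO mice, and -0.35, -0.34 and -0.18 between genotypes under vehicle. Under CORT it was 0.19 with TMM and 0.17 with median-of-ratios factors, and the median difference between genotypes in the CORT change, 0.35 as reported, was 0.40 and 0.38. TMM shifted all genes by 0.09 for CORT in GRfl/fl and 0.14 in GR-mKO gastrocnemius. The number of enzymes called depended on the rule more than on the scaling. For the rules, filters and scalings other than those reported above, the share of all genes called is not given here. Their counts are thus not set against other genes. In gastrocnemius NOISeq called 1, 0, 0 and 1 in the 4 comparisons, the rule of 1.5-fold 5, 1, 1 and 4, a NOISeq probability of 0.8 5, 1, 1 and 4, simulated samples at full depth 5, 1, 1 and 5, and a filter at a mean of 50 counts 5, 1, 1 and 5. In liver, beside 2, 0, 0 and 0, the last 3 comparisons gave 2, 1 and 2 past 1.5-fold, 1, 1 and 1 at a probability of 0.8 and 2, 1 and 2 at full depth. For CORT in GR-mKO liver TMM, median-of-ratios factors, the filter and no filter each gave 1, and between genotypes under CORT no filter gave 1. In WAT, beside 1, 1, 0 and 0, the first 3 comparisons gave 4, 4 and 2 past 1.5-fold, 5, 4 and 1 at a probability of 0.8, 5, 5 and 2 at full depth and 5, 4 and 1 with the filter, and no filter gave 2 for CORT in GRfl/fl mice. In WAT *Pkm* (CORT, GRfl/fl), *Ldha* (CORT, GR-mKO) and *Pfkm* (between genotypes, CORT) passed 1.5-fold under TMM and median-of-ratios factors and not as reported. The cause was not tested. Counting error on a CPM value was 0.422% to 5.65% in gastrocnemius and up to 271% for the scarcest enzymes in liver.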
